A study of Mus musculus with 3 samples.

Results

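The genes described here are 10 genes of cardiac progenitors and of the first heart muscle cells, taken from the table by their symbols whatever their signals. They are *Nkx2-5*, *Gata4*, *Gata6*, *Hand1*, *Hand2*, *Mef2c*, *Tbx5*, *Isl1*, *Myl7*, and *Tnnt2*. Of these, 9 were found among the 30854 gene symbols of the table. No row carried *Tnnt2*, the gene for cardiac troponin T, under its current or an older symbol, so it was not analysed here. The samples were wild-type mouse embryos at the early headfold (EHF) stage, of strain Cd-1 by the labels and ICR by the methods, with no mutation or treatment, from which the embryonic region was cut away from the extraembryonic region. Total RNA was hybridized to 3 Illumina Mouse-6 bead arrays, labelled replicates 1, 2, and 3, which formed the only group. Neither the labels nor the methods say whether an array held 1 embryo or a pool, or that the arrays came from separate litters, so every spread given below is that between these 3 arrays and may be partly technical.

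By this stage cells that will build the heart have left the primitive streak and lie as a crescent of mesoderm in front of and beside the head folds. A first population of these cells differentiates early into the cardiac crescent and the left ventricle, and a second, marked by *Isl1*, lies medially and is added later to the poles of the heart tube. The homeodomain factor Nkx2-5, the zinc finger factors Gata4 and Gata6, the T-box factor Tbx5, the basic helix-loop-helix factors Hand1 and Hand2, and the MADS-box factor Mef2c act together on the promoters of heart muscle genes, among them *Myl7* and *Tnnt2*. The labelled tissue was checked against its markers. Of 10 markers of the embryonic region, 6 were detected on all 3 arrays, *T*, *Otx2*, *Pou5f1*, *Lhx1*, *Utf1*, and *Dnmt3b*. The others, *Sox2*, *Six3*, *Hesx1*, and *Cdh1*, were not. By the limma test described below 7 of the 10 were called, where 25.7% of all symbols were. That test added *Sox2* (adjusted p = 7.18e-07) and *Cdh1* (adjusted p = 2.16e-114) and left out *Utf1* (adjusted p = 0.0940). *Cdh1*, with at least 2 probes, had log2 signals of 8.55, 8.20, and 7.78, so its signal was not low. Of 14 visceral endoderm markers, 13 were detected on all 3 arrays, where 20.6% of all symbols were.

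For a picture of the genes behind the signals, the 250 bases before the start site are shown for 3 of the detected members, as the RefSeq promoter table of GRCm38.p6 gives them. Each is written 5′ to 3′, and capitals mark CpG dinucleotides, the base pair step that DNA methylation acts on.
*Isl1*, chr13:116309689-116309938, minus strand: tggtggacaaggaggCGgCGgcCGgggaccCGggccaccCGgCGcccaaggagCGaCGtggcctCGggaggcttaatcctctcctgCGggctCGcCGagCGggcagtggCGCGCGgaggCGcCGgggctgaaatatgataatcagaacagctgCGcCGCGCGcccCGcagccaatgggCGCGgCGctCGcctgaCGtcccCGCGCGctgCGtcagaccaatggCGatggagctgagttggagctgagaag
*Nkx2-5*, chr17:26841566-26841815, minus strand: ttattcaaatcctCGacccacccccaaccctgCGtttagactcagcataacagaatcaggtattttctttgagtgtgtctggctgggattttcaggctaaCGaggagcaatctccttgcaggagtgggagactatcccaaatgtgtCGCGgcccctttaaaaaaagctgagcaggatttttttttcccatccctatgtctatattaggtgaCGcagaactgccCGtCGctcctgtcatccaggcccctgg
*Myl7*, chr11:5898783-5899032, minus strand: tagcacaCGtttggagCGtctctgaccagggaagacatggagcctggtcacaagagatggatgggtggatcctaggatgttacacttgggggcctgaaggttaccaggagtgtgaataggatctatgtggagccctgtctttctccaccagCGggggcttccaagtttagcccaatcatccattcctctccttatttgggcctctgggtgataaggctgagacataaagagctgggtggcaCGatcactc

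The *Isl1* window held 33 CpGs, a number that 4.03% of the 32851 promoter windows of the same length reached or passed. The *Nkx2-5* window held 8 and the *Myl7* window 4, against a median of 6 over all windows. The letters AGATAA, a form of the core that GATA factors bind, searched on both strands, were in none of the 3 windows and in 9.99% of all windows. TGATAA, another form of this core, stands in the *Isl1* and *Myl7* windows and was not counted over all windows. The arrays measure transcripts and not these windows, so the sequences are given as a description only.

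The deposited value of a gene is a log2 signal, averaged over its probes where it has several, with a detection p-value, the share of negative-control probes on the same array that were at least as bright, so that a p of 0 means that no such probe was. A gene was counted as expressed above background where this p was under 0.01 on all 3 arrays, the threshold named by the study. A signal limit that the study also drew belongs to normalized values, which were not used here. For genes with 1 probe this threshold corresponded to a log2 signal of 6.69 on replicate 1, 6.66 on replicate 2, and 6.58 on replicate 3, and these are called the background levels of the arrays. The threshold was passed by 9015, 8220, and 7191 symbols on the 3 arrays. Expression above background was found for 4 of the 9 measured members, *Isl1*, *Gata6*, *Myl7*, and *Nkx2-5*, where 20.6% of all symbols were called. *Gata4*, *Hand2*, and *Tbx5* were detected on no array, *Hand1* on 2 arrays, and *Mef2c* on 1.

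Other thresholds gave 3 to 6 members. With a detection p under 0.05 on all 3 arrays *Hand1* and *Mef2c* were added, which made 6 members, where 24.7% of all symbols were called, and with a p under 0.001 *Nkx2-5* was lost, which left 3, where 17.0% were called. Detection on at least 2 arrays was found for 5 members and for 25.6% of all symbols, and on at least 1 array for 6 members and for 33.0%. Without replicate 1, 2, or 3 the members numbered 4, 4, and 5, beside 21.1%, 21.6%, and 24.1% of all symbols.

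For a size and its error, each signal also went through normexp background correction and quantile normalization, and the background level of the same array was subtracted. The result is called the level above background, and limma was used to ask, one-sided and with adjustment over all symbols, whether it was above 0. By this test 6 of the 9 members had a level above background, the same 4 together with *Mef2c* and *Hand1*, where 25.7% of all symbols were called. The median level of the 9 members was 0.41 on the log2 scale, and that of all symbols was -0.34. The fit gave every gene the same standard error, 0.12, so its p-values treat the spread as known, and the largest value over 8 alternative settings or the settings that lose the call are given with them. Probes hybridize unequally, so single genes are not compared in level, each is read against background, and medians over a list are given only as a description. In RNA from a whole region, fewer cells of a type and less RNA per cell cannot be told apart.

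**Figure D1:**
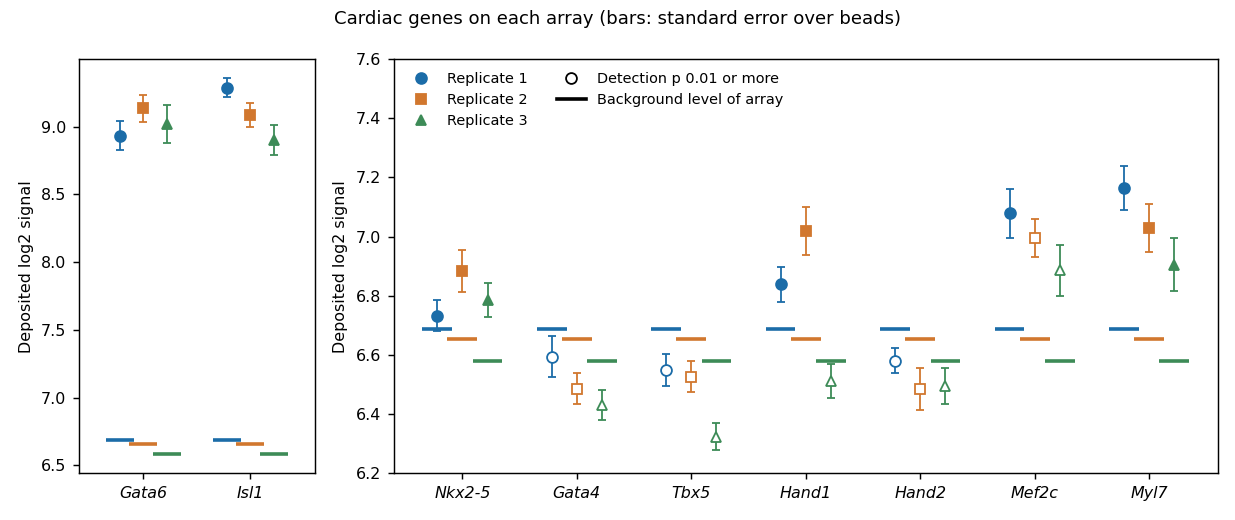
Deposited log2 signal of the 9 measured members (vertical axes, with a different range in each panel) on replicates 1, 2, and 3, with the standard error over beads as bars, short lines at the background level of each array, and open symbols where the detection p was 0.01 or more. *Gata6* and *Isl1* lay more than 2 log2 units above background on every array, *Gata4*, *Tbx5*, and *Hand2* below it on every array, and *Hand1* above it on replicates 1 and 2.

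*Isl1*, which encodes a LIM-homeodomain factor of second heart field progenitors and is also expressed in foregut endoderm, gave a log2 signal of 9.29 on replicate 1, 9.09 on replicate 2, and 8.90 on replicate 3. The probe was read on 50, 45, and 47 beads, and its detection p was 0 throughout. The signals exceeded the background level of their arrays by 2.60, 2.43, and 2.32, so the 3 arrays gave similar distances from background. Its level above background after normalization was 3.92 (standard error 0.12, n = 3), and the largest adjusted p from limma over the 8 alternatives was 4.08e-05.

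*Gata6*, which encodes a zinc finger factor of cardiac mesoderm that is also expressed in visceral and definitive endoderm, had log2 signals of 8.93, 9.13, and 9.02, and its detection p was 0 throughout. The signals lay 2.25, 2.48, and 2.44 above background, with little spread between the arrays on this deposited scale. After normalization the level above background was 3.83 (standard error 0.12, n = 3), with a largest adjusted p from limma of 3.73e-05 over the alternatives. The arrays were further apart on that scale, at 3.52, 3.91, and 4.05 (SD 0.42), which the shared standard error does not show.

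Its paralog *Gata4*, a partner of Nkx2-5 and Tbx5 that is likewise expressed in both cardiac mesoderm and visceral endoderm, was not detected. Its log2 signals were 6.59, 6.49, and 6.43, with detection p-values of 0.100, 0.355, and 0.237. On every array the signal was under the background level, by 0.09, 0.17, and 0.15 on the log2 scale. The level after normalization was -0.33 relative to background (95% interval -0.57 to -0.09). Both *Gata* genes were measured by 1 probe each, and a transcript that its probe binds poorly would be missed in the same way as one that is scarce. Expression of *Gata4* was therefore not detectable here, which is not to say that it was absent.

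*Nkx2-5*, one of the first markers of committed cardiac progenitors, was detected on all 3 arrays but close to the limit. Its log2 signals were 6.73, 6.88, and 6.79, with detection p-values of 0.00534, 0, and 0. They exceeded background by 0.05, 0.23, and 0.21, so replicate 1 was the lowest by this measure. The level above background was 0.41 (standard error 0.12, n = 3), with an adjusted p of 0.00153 from limma. It was no longer past the threshold with deposited signals that were not normalized (adjusted p = 0.0638 from limma), with median centring (adjusted p = 0.0602), or without replicate 2 (adjusted p = 0.117).

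*Tbx5*, a T-box factor of the first heart field and later of the left ventricle and atria, was not detected on any array. It was measured by at least 2 probes, with mean log2 signals of 6.55, 6.53, and 6.32 and combined detection p-values of 0.147, 0.0675, and 0.909. Its level was -0.38 relative to background (95% interval -0.62 to -0.14).

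The *Hand* genes encode factors of the developing ventricles, *Hand1* chiefly on the left and *Hand2* on the right, and *Hand1* is also expressed in extraembryonic mesoderm and trophoblast. *Hand1* had log2 signals of 6.84, 7.02, and 6.51, with detection p-values of 0.00107, 0, and 0.0459. It was thus above background by 0.15 and 0.36 on replicates 1 and 2, and under it by 0.07 on replicate 3. The difference between replicates 2 and 3, measured from the background of each array, was 0.43, or 4.34 times the standard error of that difference over beads (0.10). For the other members the largest difference between arrays was at most 2.10 such errors, the value of *Isl1*.

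The SD of *Hand1* between arrays was 3.24 times its error over beads. For 4581 genes with 1 probe that were detected on all 3 arrays the median of this ratio was 2.49, and for 15503 such genes detected on none it was 1.13. The level of *Hand1* after normalization was 0.29 above background (standard error 0.12, n = 3, adjusted p = 0.0318 from limma). That call was lost under 5 of the 8 alternatives, among them the omission of replicate 1, which left the level at 0.29 with a larger standard error of 0.15 (adjusted p = 0.111 from limma), and of replicate 2, which left a level of 0.021 (adjusted p = 0.999).

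The order of the arrays in *Hand1* was looked up in the marker lists, an order chosen because *Hand1* had it. Measured from background on the deposited scale, 8 of the 14 visceral endoderm markers, or 57.1%, were highest on replicate 2 and lowest on replicate 3, as *Hand1* was, and 17.4% of the symbols above background had this order. After normalization these shares were 71.4% and 24.3%. On the deposited scale 2 of the 9 members had the order, *Hand1* and the undetected *Tbx5*. It was also found for 2 of 7 gut endoderm, 2 of 6 skeletal muscle, and 2 of 12 endothelium and blood markers. Of 7 paraxial mesoderm and 10 embryonic region markers, 0 had it. A lowest value on replicate 3 was itself common, at 85.1% of the symbols above background on the deposited scale. The summed linear signal of the visceral endoderm markers ranged from 7836 to 16322 over the arrays, lowest on replicate 3, where *Afp* was not detected. Of 6 markers of the allantois and extraembryonic mesoderm, none was detected on all 3 arrays, 3 had the order of *Hand1* on the deposited scale, and the summed linear signals were 612 to 734. Of these, *Tbx4* and *Ahnak*, a T-box factor and a large membrane-associated protein, passed the threshold on 1 and 2 arrays. By limma 1 of the 6 was called, where 25.7% of all symbols were. This was *Ahnak*, measured by at least 5 probes, with a level of 2.42 above background (adjusted p = 1.39e-87). The part of other tissues in the *Hand1* signal was not tested.

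*Hand2* was detected on no array, with log2 signals of 6.58, 6.48, and 6.50 and detection p-values of 0.137, 0.366, and 0.0726. The 3 values lay 0.11, 0.17, and 0.08 under background on the log2 scale. Its level was -0.28 relative to background (95% interval -0.52 to -0.04), so expression was not detectable with its 1 probe.

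*Mef2c*, a MADS-box factor of the second heart field and of differentiating muscle, was the member for which both criteria differed most. It was measured by at least 5 probes, with mean log2 signals of 7.08, 7.00, and 6.89, which exceeded background by 0.39, 0.34, and 0.31. Its combined detection p was 0.00518, 0.0397, and 0.0321, so that only replicate 1 passed. The level above background was 0.80 (standard error 0.12, n = 3), with an adjusted p of 1.07e-10 from limma and a largest value of 0.00159 over the alternatives. The same split was common: where a symbol had several probes and its averaged signal exceeded background on every array, 1691 of 3326 symbols, or 50.8%, were not called by the detection p. Which of its probes carried the signal could not be read from the averaged values.

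*Myl7*, the atrial myosin light chain and one of the first contractile genes of the cardiac crescent, was detected on all 3 arrays. Its log2 signals were 7.17, 7.03, and 6.91, with a detection p of 0 on each, and exceeded background by 0.48, 0.37, and 0.33. The differences between arrays, at most 0.15 from background, were within 1.31 standard errors over beads. The level above background was 0.90 (standard error 0.12, n = 3), with an adjusted p of 4.04e-13 from limma and a largest value of 0.00219 over the alternatives.

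**Figure D2:**
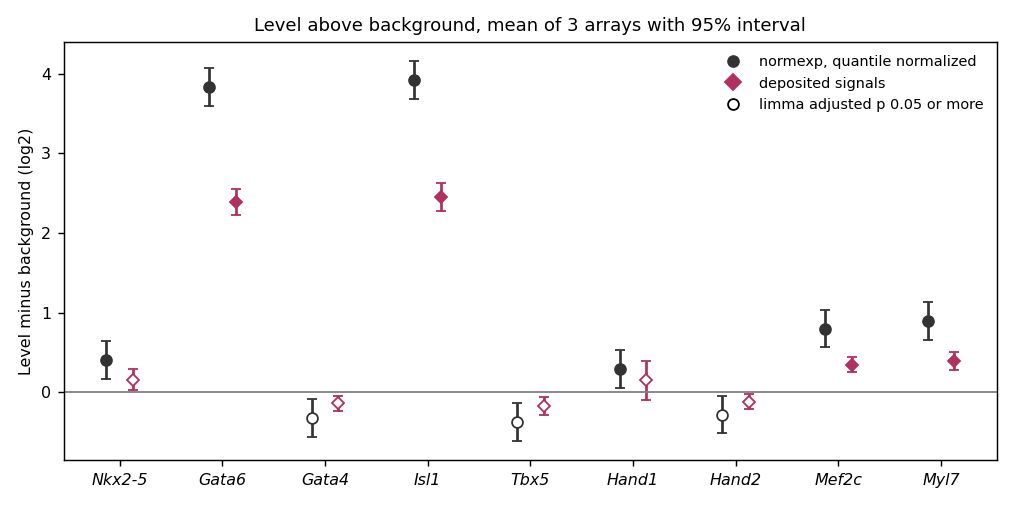
Level minus background on the log2 scale (vertical axis) for the 9 measured members, as the mean of 3 arrays with its 95% interval, after normexp and quantile normalization (circles) and from the deposited signals (diamonds). Open symbols mark an adjusted p of 0.05 or more, and *Nkx2-5* and *Hand1* are filled only on the normalized scale, where their levels were 0.41 and 0.29.

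On replicates 1 and 3, the 4 detected members lay on the same side of the median of all symbols above background on each of 4 scales. Each array was set against the mean of the other arrays, and the median over the members was compared with that over the 6357 symbols above background. After normalization the members had medians of -0.40, -0.02, and 0.41 on replicates 1, 2, and 3, where the symbols above background had -0.01, -0.01, and 0.03. With the signals as deposited the members had 0.048, 0.06, and -0.11, but the symbols above background had moved as well, to 0.32, 0.06, and -0.38.

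Relative to those symbols the median of the members was thus lower by 0.39 on the log2 scale on replicate 1 and higher by 0.38 on replicate 3 after normalization. The corresponding differences were -0.27 and 0.27 both as deposited and after median centring, and -0.20 and 0.22 with quantile normalization alone. All 4 members were under the median of those symbols on replicate 1 and over it on replicate 3 on each of the 4 scales, and 2 were under it on replicate 2. These are not separate observations. Median centring shifts all symbols of an array alike, so it gives the same comparison as the deposited signals. The values of a gene on the 3 arrays also cancel out, so those on replicates 1 and 3 depend on each other. The distances were unequal. After normalization *Nkx2-5* and *Gata6* had -0.68 and -0.66 on replicate 1, and *Isl1* and *Myl7* had -0.15 each. The 5th and 95th percentiles of those symbols were -0.38 and 0.43, so *Isl1* and *Myl7* lay between them. On replicate 3 *Nkx2-5* and *Gata6* had 0.54 and 0.58, *Isl1* and *Myl7* had 0.28 and 0.26, and the percentiles were -0.57 and 0.49. With 3 arrays of 1 group this is a description, and no test was made.

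**Figure D3:**
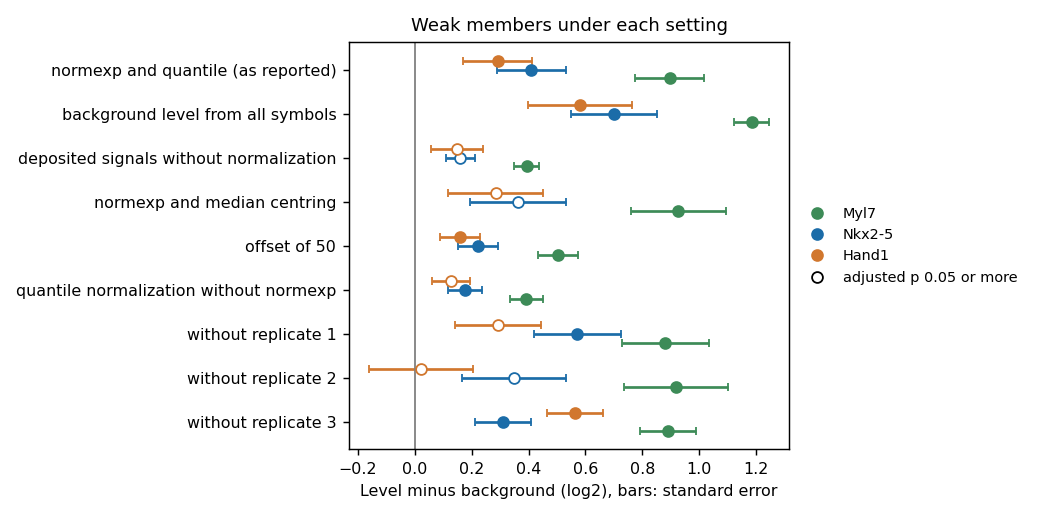
Level minus background on the log2 scale (horizontal axis, bars show the standard error) of *Myl7*, *Nkx2-5*, and *Hand1* under the reported setting and the 8 alternatives. Open circles mark an adjusted p of 0.05 or more. *Myl7* was past the threshold in each setting, *Nkx2-5* in 5 and *Hand1* in 3 of the 8 alternatives.

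Other transcription regulators of heart development were looked at as a list of 25 genes, of which 23 were in the table and *Mef2a* and *Zfpm1* were not found. Of the 23, 9 were above background by the detection p, *Mesp1*, *Tbx1*, *Tbx3*, *Myocd*, *Smarcd3*, *Hey1*, *Hey2*, *Foxc1*, and *Foxc2*. This is 39.1%, where 20.6% of all symbols were called, and the median level of the list was -0.020 relative to background. By the limma test 9 were called as well, where 25.7% of all symbols were, among them *Srf* and *Hopx*, which the detection p left out, while *Myocd* and *Hey2* were not called.

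*Mesp1*, the factor that marks the earliest cardiovascular mesoderm as it leaves the streak, had log2 signals of 7.50, 6.90, and 6.69, with replicate 1 well above the other arrays. *Tbx1*, a T-box factor of the second heart field and pharynx, had 6.93, 6.90, and 6.91, with hardly any spread as deposited. After normalization its arrays were further apart, at 0.48, 0.57, and 0.93 above background (SD 0.39). *Tbx3*, a factor of the later conduction system that is also expressed elsewhere in the embryo, had log2 signals of 7.10, 6.97, and 6.60. *Foxc1* and *Foxc2* encode forkhead factors of paraxial and cardiac mesoderm. *Foxc1* had 8.18, 7.73, and 7.55, and *Foxc2* had 7.31, 7.09, and 6.92. *Hey1*, a Notch target that is later expressed in the atria, had 8.65, 8.45, and 7.74, with replicate 3 apart from the others. Their levels above background were 0.82 for *Mesp1*, 0.66 for *Tbx1*, 0.53 for *Tbx3*, 2.27 for *Foxc1*, 1.03 for *Foxc2*, and 2.90 for *Hey1* (standard error 0.12 each). The level of *Mesp1* fell to 0.46 without replicate 1, and with deposited signals *Mesp1* (adjusted p = 0.120 from limma) and *Tbx3* (adjusted p = 0.0913) were not past the threshold. *Gata5*, the third cardiac *Gata* gene, was detected on 1 array, and *Tbx20*, a T-box factor of the heart tube, on none.

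Other genes of the contractile apparatus and of heart muscle function made a list of 27, all of them in the table. Expression above background was found for 8, *Tpm1*, *Atp2a2*, *Acta2*, *Tnnc1*, *Myl4*, *Myl2*, *Myl3*, and *Des*, which is 29.6%, where 20.6% of all symbols were called, and 17 were detected on no array. The median level of the list was -0.31. *Tnnc1*, which encodes the calcium-binding troponin of slow and cardiac muscle, had log2 signals of 8.10, 8.26, and 7.82. *Myl4*, the atrial essential light chain, had 8.10, 8.05, and 7.98, and *Myl2*, the ventricular regulatory light chain, had 7.65, 7.53, and 7.37. These signals were above the background of their arrays by at least 0.79 on the log2 scale.

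*Tpm1* (tropomyosin) had log2 signals of 10.41, 10.32, and 9.92, *Atp2a2* (the calcium pump of the sarcoplasmic and endoplasmic reticulum) 9.37, 9.00, and 8.65, and *Acta2* (smooth muscle actin) 8.23, 8.72, and 8.31. These genes are also expressed by cells other than muscle. Levels above background were 5.15 for *Tpm1*, 3.82 for *Atp2a2*, 3.10 for *Acta2*, 2.62 for *Tnnc1*, 2.60 for *Myl4*, and 1.80 for *Myl2* (standard error 0.12 each). Among the genes not called, named after their values were seen, were *Actc1* (cardiac actin), *Myh6* and *Myh7* (cardiac myosin heavy chains), *Tnni1* and *Tnni3* (troponin I), *Ttn* (titin), and *Nppa* (atrial natriuretic peptide). *Actc1* had combined detection p-values of 0.0392, 0.432, and 0.0215. All 6 skeletal muscle markers tested, *Myod1*, *Myf5*, *Myf6*, *Myog*, *Ckm*, and *Acta1*, were detected on no array, with summed linear signals of 489 to 563.

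**Figure D4:**
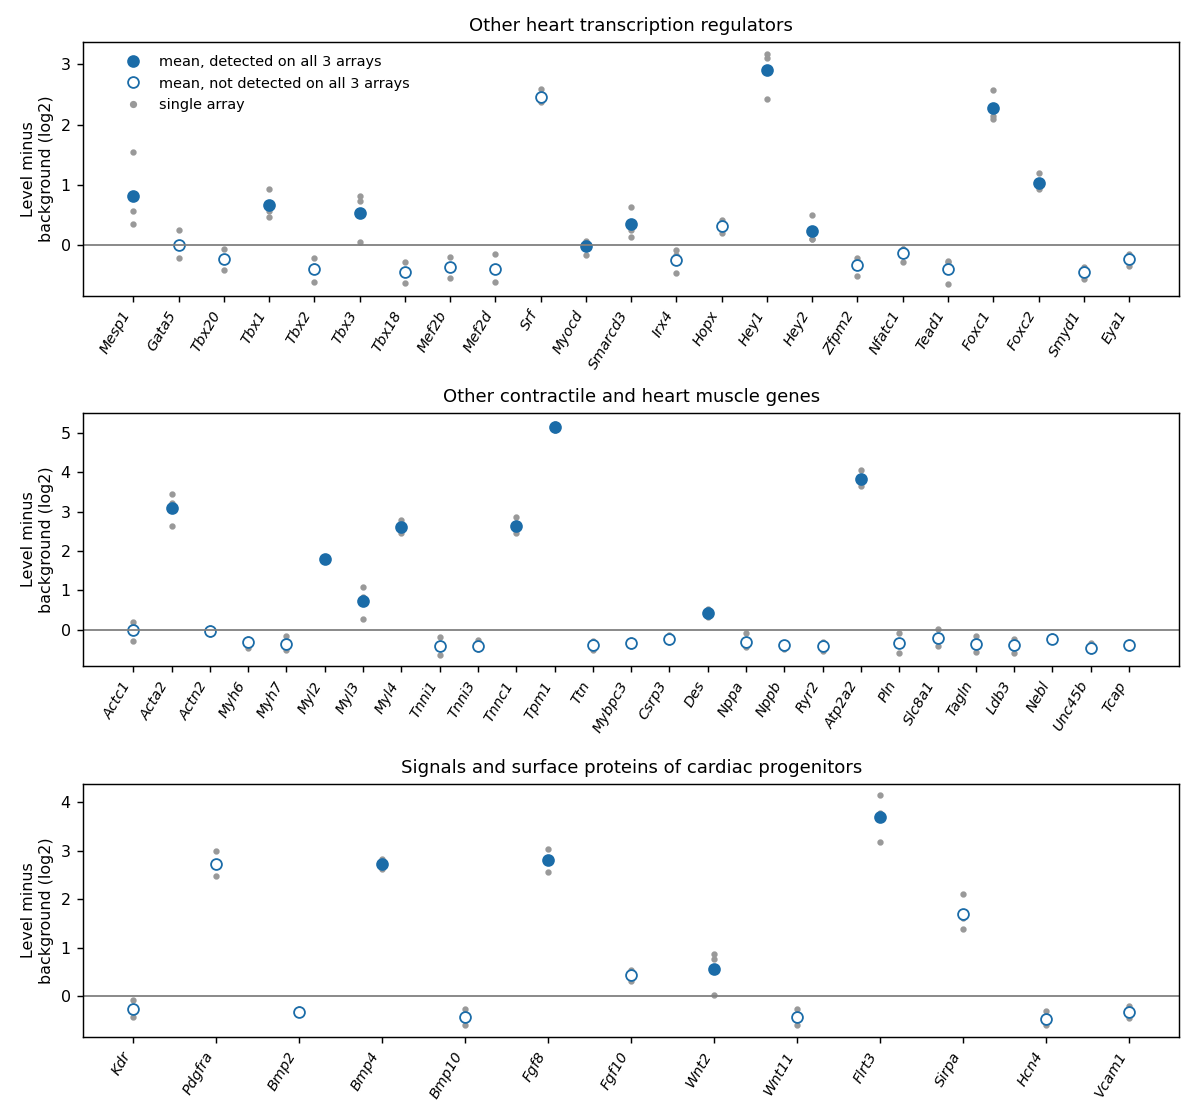
Level minus background after normalization on the log2 scale (vertical axes) for the listed heart transcription regulators, contractile and heart muscle genes, and progenitor signals and surface proteins. Large circles show the mean of 3 arrays, filled where the detection p was under 0.01 on all 3 arrays, and small dots show single arrays. Filled circles number 9 of 23, 8 of 27, and 4 of 13, and *Srf*, *Pdgfra*, and *Sirpa* stand above background with open circles.

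Of 13 signals and surface proteins of cardiac progenitors, 4 were above background by the detection p, *Bmp4*, *Fgf8*, *Wnt2*, and *Flrt3*, which is 30.8%, where 20.6% of all symbols were called. By the limma test 7 were, with *Pdgfra*, *Fgf10*, and *Sirpa* added, where 25.7% of all symbols were called. The median level of the list was 0.44. *Fgf8*, a growth factor that second heart field cells both make and need, had log2 signals of 8.53, 8.05, and 7.99. *Bmp4*, a ligand that induces cardiac mesoderm, had 8.29, 8.24, and 7.87. *Wnt2*, a ligand expressed in early cardiac progenitors, had 7.08, 7.04, and 6.59, the last only just above background, and *Flrt3*, a transmembrane protein of early mesoderm and endoderm, had 9.47, 9.00, and 8.28. Their levels above background were 2.80 for *Fgf8*, 2.72 for *Bmp4*, 0.55 for *Wnt2*, and 3.70 for *Flrt3* (standard error 0.12 each). *Wnt2* was not past the threshold with deposited signals (adjusted p = 0.0942 from limma) or without replicate 2 (adjusted p = 0.0698).

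*Pdgfra*, a receptor of cardiac and paraxial mesoderm with at least 2 probes, had log2 signals of 8.50, 8.15, and 7.77 but combined detection p-values of 0.00863, 0.138, and 0.117, the same split as *Mef2c*. *Hcn4*, a pacemaker channel of the first heart field, was detected on no array, with log2 signals of 6.49, 6.34, and 6.35. *Kdr*, a receptor of cardiovascular progenitors and endothelium, was detected on replicate 1 only. Of 12 markers of endothelium and blood, the other derivatives of early lateral mesoderm, 2 were above background, *Tal1* and *Etv2* (listed as *Etsrp71*). This is 16.7%, where 20.6% of all symbols were called. Of 7 paraxial mesoderm markers in the table, 3 were above background, or 42.9%, *Meox1*, *Tcf15*, and *Tbx6*. Of 7 gut endoderm markers, tissue in which *Gata4*, *Gata6*, and *Isl1* are also expressed, 5 were above background, or 71.4%, *Sox17*, *Foxa1*, *Cer1*, *Hhex*, and *Trh*. *Foxa2* and *Pyy* were not, and *Cer1* was not called by limma (adjusted p = 0.283). The share of each tissue in the signals of the cardiac genes was not tested.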

How the data were processed

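Total RNA from 3 samples of 1 group was measured on 1-colour Illumina Mouse-6 arrays. The authors deposited a log2 signal per gene symbol, not normalized between arrays, with the mean number of beads, the standard error over beads on the linear intensity scale, and a detection p-value. That scale was read from the values. The submitters' processing notes name Partek, without a version, and no genome build is given in the sources used here. Depth does not apply to arrays, and their number, 3, limits the precision. No column was left without a sample.

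The number of probes per symbol was the smallest that made the bead numbers whole, up to 12. A symbol counted as having 1 probe (21989 of 30854) also needed detection p-values on steps of 1 in 936, within a tolerance of 0.003. The 673 symbols that failed only this condition were not used to set background levels. For each array, background was set at the lowest signal of any symbol with 1 probe whose detection p lay between 0 and 0.01, both excluded.

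The normexp model was fitted on the symbols that had 1 probe, and an offset of 16, quantile normalization, and log2 followed. The level minus background was tested with limma (lmFit with an intercept, eBayes, one-sided, Benjamini-Hochberg, threshold 0.05) and the script was tested on simulated data. Errors over beads were carried to the log2 scale by dividing by the signal and by the natural log of the base.

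Alternatives were detection p under 0.05 or 0.001, detection on at least 2 or at least 1 array, other ways to correct, scale, and set background, and the omission of each replicate in turn. The members, lists, and tests were chosen with earlier results of these data known. All members are described, and in each other list every gene called by the detection p is named, with values for up to 6, those with the highest level. Names of genes that were not called were chosen after their values were seen. From the heart regulator list, 2 genes are not reported here, for a reason unrelated to their values, and its counts leave them out. Older symbols were matched through the RefSeq gene table of GRCm38.p6. R 4.3.3, limma 3.58.1, Python 3.11.15, numpy 2.4.6, pandas 2.3.3, and matplotlib 3.10.9 were used.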

Additional observations from a re-analysis of the deposited data

How the results depend on the processing

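The count of 4 detected members lay between 3 and 6 over the alternatives and between 4 and 5 without a replicate, and the count of 6 by limma between 4 and 6. Symbols above background numbered 10172 with detection on at least 1 array. With a detection p under 0.001, 4 of 23 heart transcription regulators, 5 of 27 contractile genes, and 2 of 13 progenitor signals were left. At that threshold 17.0% of all symbols were called. The signals numbered 8 with detection on at least 1 array, where 33.0% of all symbols were called, and 7 by limma, where 25.7% were. The level of *Nkx2-5* fell short of the threshold with deposited signals (0.16) and with median centring (0.36), and ranged from 0.31 to 0.57 without a replicate, falling short without replicate 2. That of *Hand1* fell short with deposited signals (0.15), median centring (0.28), and quantile normalization alone (0.13), and ranged from 0.021 to 0.56 without a replicate, passing only without replicate 3. *Hand2* turned to 0.011 above background when the background level came from all symbols, and was called in neither case. Median differences of the detected members between arrays moved from -0.40 to -0.053 (median centring) and 0.048 (as deposited) on replicate 1, where those of the symbols above background moved from -0.01 to 0.22 and 0.32. On replicate 3 they moved from 0.41 to 0.011 and -0.11, beside 0.03, -0.26, and -0.38, so that relative to those symbols the direction was kept. Median centring and the deposited signals give the same comparison here, since centring shifts all symbols of an array alike. For the calls that were lost, the cause was not tested. *Isl1*, *Gata6*, *Myl7*, and *Mef2c* were called by limma in all 8 alternatives. No paired analysis was possible because the arrays form 1 group. Signals near background limit what can be called.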
